A study of Homo sapiens with 6 samples.

Results

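The DNA replication and G1/S genes examined here are 53 genes, taken by symbol from the deposited gene table of 46427 genes. Each of the 53 was found in the table and each passed the filter on low counts, with between 334 and 22935 counts in any library. The samples are MDA-MB-231 cells, an established human breast cancer line of the mesenchymal type, cultured in low-glucose medium with fetal bovine serum. One group of 3 libraries came from cells treated with control-siRNA and the other group of 3 from cells transfected with siGENOME siRNA against WWTR1, the gene that encodes the transcriptional co-activator TAZ. The genotype is wild type in both groups, and the comparison covers a transient knockdown in 1 line with 1 siRNA reagent. Per the methods of the study, each group had 3 cell preparations. The question asked of these genes was whether TAZ knockdown lowered the S-phase programme as a group.

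Before each S phase, the origin recognition complex, CDC6 and CDT1 load the MCM2-7 helicase onto DNA in G1, and the kinases CDK2 and CDC7 then switch the loaded helicase on by way of CDC45 and the GINS complex. Cyclins D and E drive phosphorylation of the retinoblastoma protein, which frees E2F transcription factors to raise the mRNA of most of these genes at the border of G1 and S. TAZ and its relative YAP bind DNA through TEAD factors and are known for promoting proliferation in many epithelial and cancer cells.

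The knockdown and the cell line were checked first. WWTR1 (chromosome 3, GRCh38 149517229 to 149724788) was at 192, 189.8 and 190.0 CPM (counts relative to library size, scaled by TMM factors) in the control-siRNA libraries. With TAZ-siRNA it was at 17.3, 17.0 and 15.1 CPM, or 8.64% of control-siRNA (log2 fold change -3.53, SE 0.061, edgeR adjusted p = 2.47e-10). Vimentin (VIM) lay between 3297 and 3734 CPM over the 6 libraries, whereas the oestrogen receptor gene ESR1 reached at most 0.0883 CPM and the leukocyte gene PTPRC and the T cell gene CD3E had 0 counts, which allows up to 0.0621 CPM in the shallowest library (3 counts, counting error only). Not every marker of another cell type was absent. The leukocyte gene CD14, the endothelial gene CDH5 and the luminal gene CDH1 had enough counts to pass the filter. Total counts ranged from 49662504 to 66769103 with control-siRNA and from 48307548 to 71749634 with TAZ-siRNA. No 2 replicates agreed within sampling noise.

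TAZ knockdown was accompanied by lower mRNA of part of the replication genes, by modest amounts. Of the 53 members, 19 fell and 0 rose at an edgeR adjusted p under 0.05. Over all 16966 genes tested, 10.2% were called lower and 11.9% higher, 22.1% in either direction. The members called lower make up 35.8% of the list. Among the 10331 genes expressed at or above the least abundant member, 13.7% were called lower and 15.0% higher. The shares of the roles below are set beside the 10.2% of all genes, although every member lies at or above that level. Without the adjustment, 25 members were lower and 2 higher at an edgeR p under 0.05. Over all 16966 genes tested, 2947 were lower and 3122 higher at that threshold. DESeq2 called 20 members lower and 0 higher, beside 11.4% lower and 13.3% higher over all genes.

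The median log2 fold change of the members was -0.12, or 91.8% of control-siRNA, beside -0.0054 over all genes tested. The point estimate lay below 0 in 43 members and above 0 in 10, and it ranged from -0.47 in CDC45 to 0.31 in E2F2. None of the 53 members differed by 1.5-fold or more. Among the 19 genes that fell, the decrease was 12.2 to 27.7%. In 28 members all TAZ-siRNA libraries lay below all control-siRNA libraries, where 19.6% of all genes tested did so, and in 2 members, PCNA and E2F7, they all lay above, where 20.0% of all genes tested did so. In bulk RNA, fewer cells in S phase and less of these mRNAs per cell cannot be told apart.

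**Figure D1:**
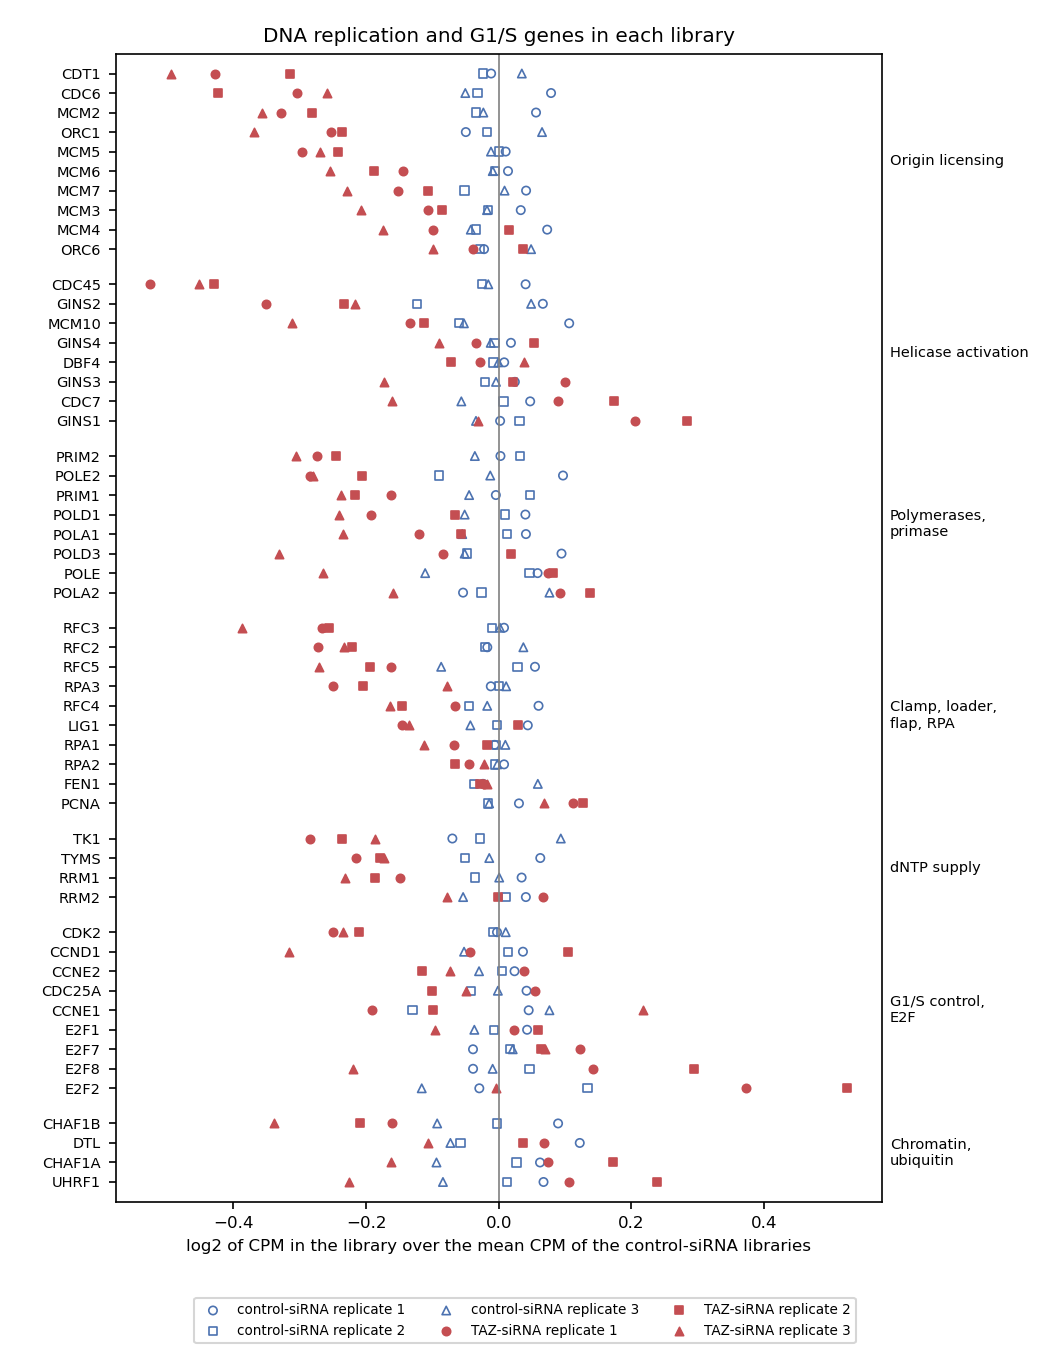
Level of each of the 53 genes in each library, as the log2 of its CPM over the mean CPM of the 3 control-siRNA libraries (horizontal axis), with genes grouped by role and ordered by fold change within each role. Open blue symbols are control-siRNA libraries and filled red symbols TAZ-siRNA libraries; in 28 genes all red symbols lie left of all blue ones, and the red triangles (TAZ-siRNA replicate 3) are the lowest of all 6 libraries in 32 genes.

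The 3 TAZ-siRNA libraries did not lie equally low. The median deviation of the members from the control mean was -0.11, -0.086 and -0.21 (log2) in TAZ-siRNA replicates 1, 2 and 3, and 0.035, -0.0082 and -0.014 in the control-siRNA replicates. TAZ-siRNA replicate 3 was the lowest of its group in 35 members, and control-siRNA replicate 1 was the highest of its group in 36. With TAZ-siRNA replicate 3 left out, 20 members were called lower and 5 higher (GINS1, PCNA, E2F2, E2F8 and UHRF1), and the median was -0.086. That fit also called more of all genes, 16.1% lower and 17.6% higher. Without control-siRNA replicate 1 the median was -0.074 and 11 members were called lower. Without control-siRNA replicate 3, and likewise without TAZ-siRNA replicate 1, the count was also 11. These fits called fewer of all genes lower too: 5.74, 5.32 and 5.22% in the same order, beside 10.2% with all libraries. Of the 19 genes, 9 were called in each of the 6 fits that left out 1 library: CDC6, CDT1, MCM2, MCM5, CDC45, PRIM2, RFC2, RFC3 and CDK2.

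The promoters of these genes are known for sites of E2F factors, so the letters of such sites were sought. The RefSeq table (GRCh38.p14, 250 bases before to 50 after each start) held 43 of the 53 members, and it did not match MCM4, MCM5, GINS4, POLD3, RPA2, RPA3, CCND1, CCNE2, CDK2 and E2F8. Any of TTTGGCGC, TTTCCCGC, TTTCGCGC or TTTGCCGC, on either strand and with overlapping matches counted, stood in 23 of the 43 (53.5%), beside 3.31% of all 35116 promoters in the table and 6.40% of the tested genes it holds. The letters were present in 8 of the 17 members called lower and in 15 of the 26 not called. Stretches that end 1 base before the start show where the letters, in capitals, stood in 3 genes that fell and 2 that did not pass the test. In MCM6 the forward and reverse letters overlap, which gives 4 matches in 2 places.
CDT1 (fell; chr16:88803689-88803788, plus strand): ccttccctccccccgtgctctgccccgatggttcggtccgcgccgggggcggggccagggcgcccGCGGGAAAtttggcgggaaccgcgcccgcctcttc
MCM6 (fell; chr2:135876444-135876603, minus strand): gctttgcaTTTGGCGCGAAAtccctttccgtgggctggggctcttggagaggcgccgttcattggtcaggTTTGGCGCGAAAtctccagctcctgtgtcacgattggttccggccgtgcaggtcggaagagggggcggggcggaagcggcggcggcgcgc
GINS2 (fell; chr16:85688955-85689054, minus strand): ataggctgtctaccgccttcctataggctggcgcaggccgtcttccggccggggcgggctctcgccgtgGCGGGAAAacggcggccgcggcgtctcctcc
PCNA (not called; chr20:5126623-5126722, minus strand): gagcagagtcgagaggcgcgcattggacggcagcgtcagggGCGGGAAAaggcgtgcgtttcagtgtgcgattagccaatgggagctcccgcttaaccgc
E2F1 (not called; chr20:33686386-33686485, minus strand): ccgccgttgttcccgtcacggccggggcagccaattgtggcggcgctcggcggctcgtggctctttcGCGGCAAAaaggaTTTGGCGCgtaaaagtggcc

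Of the other letters sought on both strands, CCAAT stood in 25 of the 43 members (58.1%, beside 34.6% of all promoters and 42.5% of the tested genes in the table). The TEAD letters GGAATG stood in 9 (20.9%, beside 14.03% and 15.2%), of which 1 was among the 17 that fell and 8 among the 26 not called. The CHR letters TTTGAA or TTCGAA, known from genes of G2 and mitosis, stood in 3 (6.98%, beside 16.4% and 15.7%). These matches are descriptions of the windows and not sites of binding.

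Origin licensing held the most genes that fell, 6 of 10 (60%, beside 10.2% of all genes), with a median log2 fold change of -0.23. ORC1, CDC6 and CDT1, which load the helicase, and the helicase subunits MCM2, MCM5 and MCM6 fell, and all 10 estimates lay below 0. CDT1 (chr16:88803789-88809258), the loader that is destroyed once S phase begins, was at 46.8, 46.4 and 48.3 CPM with control-siRNA and at 35.0, 37.9 and 33.5 CPM with TAZ-siRNA. The groups did not overlap, and the mean was 75.3% of control-siRNA (log2 fold change -0.41, SE 0.060, edgeR adjusted p = 0.0012). CDC6, its partner in loading, was at 186, 173 and 171 CPM with control-siRNA and at 143, 132 and 148 CPM with TAZ-siRNA. Again the groups did not overlap, and the mean was 79.7% of control-siRNA (log2 fold change -0.33, SE 0.057, edgeR adjusted p = 0.00312). On deposited FPKM with limma, CDC6 kept a similar estimate (-0.29) but did not pass the test (adjusted p = 0.118). The share of CDC6 signal that the authors assigned to its leading transcript ranged from 39.8 to 99.1% between libraries.

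MCM2 (chr3:127598411-127622436) was at 131, 123 and 124 CPM with control-siRNA and at 100.5, 104 and 98.5 CPM with TAZ-siRNA. The highest TAZ-siRNA library was thus below the lowest control-siRNA library, and the mean was 80% of control-siRNA (log2 fold change -0.32, SE 0.047, edgeR adjusted p = 0.00125). MCM5 was at 112, 112 and 111 CPM against 90.7, 94.2 and 92.5 CPM, or 83.0% of control-siRNA (log2 fold change -0.27, edgeR adjusted p = 0.00198). MCM6 was at 87.4% (-0.19, adjusted p = 0.0142) and ORC1, the largest subunit of the origin recognition complex, at 82.1% (-0.28, adjusted p = 0.0124). MCM7 and MCM3 also had groups that did not overlap, with means of 89.4 and 91.2% of control-siRNA, but their edgeR adjusted p was 0.062 and 0.0804. DESeq2 called MCM7 lower. MCM4 and ORC6 overlapped between the groups, at 94.4 and 97.8% of control-siRNA, with 95% intervals of the log2 fold change from -0.21 to 0.046 and from -0.16 to 0.097. After correction for GC content and length, MCM4 (-0.14, adjusted p = 0.0397), MCM3 (-0.17, adjusted p = 0.0108) and MCM7 (-0.16, adjusted p = 0.026) were called lower. This correction, used again for genes below, called more genes everywhere. It called 15.2% of the genes it covered lower and 14.4% higher, beside 10.2 and 11.9% without it.

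The MCM2-7 subunits, which join in equal numbers in the helicase, were not at equal mRNA levels. Per length, MCM7 was the most abundant with 283 ± 13.4 TPM and MCM5 the least with 70.1 ± 2.21 TPM (SD, n = 3, control-siRNA), a ratio of 4.04 that was 4.33 with TAZ-siRNA. MCM2 over MCM4 was 0.881, 0.890 and 0.902 (TPM ratio) with control-siRNA and 0.760, 0.724 and 0.785 with TAZ-siRNA. CDT1 over its inhibitor geminin (GMNN, at 98.1% of control-siRNA by CPM) was 0.554, 0.546 and 0.602 against 0.442, 0.431 and 0.440. Neither ratio overlapped between the groups, and both were chosen after the values were seen.

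Among the 8 genes of helicase activation, 2 fell (25%, beside 10.2% of all genes), and the median log2 fold change was -0.022. CDC45 (chr22:19479294-19520612), which turns the loaded MCM ring into an active helicase, was at 63.7, 60.8 and 61.3 CPM with control-siRNA. With TAZ-siRNA it was at 43.0, 46.0 and 45.3 CPM. These levels did not overlap, and the mean of 44.8 ± 1.55 CPM was 72.3% of 61.9 ± 1.54 CPM (SD, n = 3; log2 fold change -0.47, SE 0.052, edgeR adjusted p = 0.000285). CDC45 had the largest fall of the 53 genes, and it was called in all alternatives and in all fits without 1 library. GINS2, a subunit of the GINS ring that joins CDC45, was at 19.5, 17.1 and 19.3 CPM against 14.6, 15.9 and 16.04 CPM. Its groups did not overlap either, at 83.2% of control-siRNA (log2 fold change -0.27, SE 0.076, edgeR adjusted p = 0.0296), but the call was held in only 2 of the 6 fits without 1 library.

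The other subunits of the same ring were not called. GINS1 was at 112%, GINS3 at 99.2% and GINS4 at 98.4% of control-siRNA, and their groups overlapped. GINS1 was at 22.9, 24.1 and 19.4 CPM with TAZ-siRNA, so that TAZ-siRNA replicate 3 alone lay within the control-siRNA range of 19.4 to 20.3 CPM. Whether GINS2 and the other subunits differed in their change was not tested. CDC45 over GINS4 was 4.46, 4.34 and 4.37 (TPM ratio, chosen after the values were seen) with control-siRNA and 3.14, 3.13 and 3.42 with TAZ-siRNA. CDC7 and its activator DBF4, the kinase that acts on the MCM ring, were at 103 and 98.6% of control-siRNA with overlapping groups. MCM10, which supports helicase activation, was at 88.0% without overlap (edgeR adjusted p = 0.0766), and after correction for GC content and length it was called lower (-0.24, adjusted p = 0.00713).

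**Figure D2:**
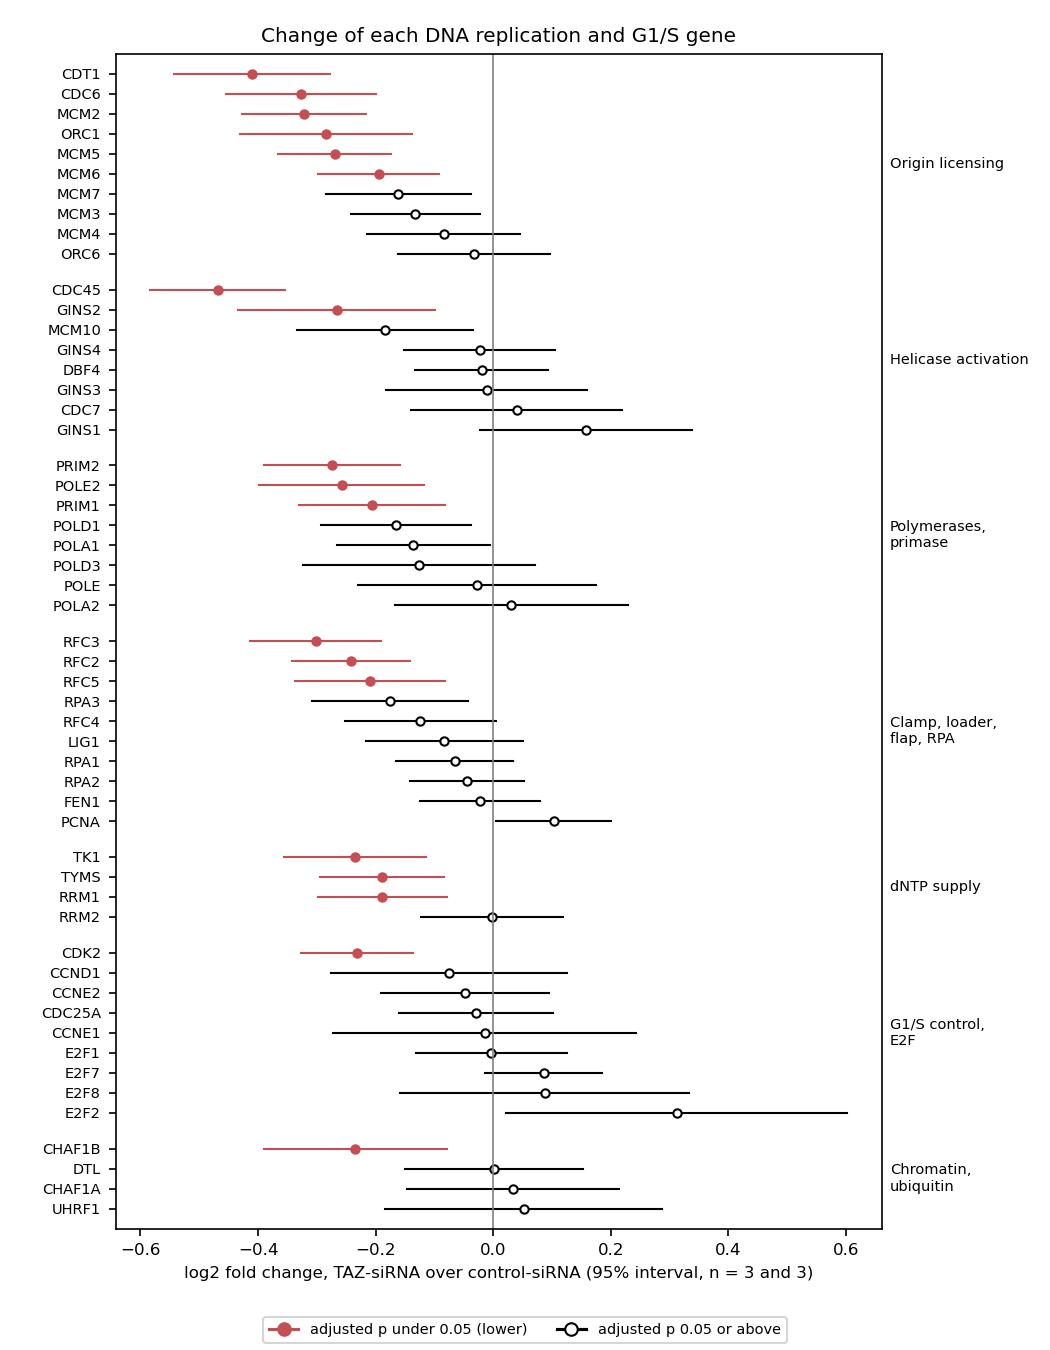
Log2 fold change of each of the 53 genes, TAZ-siRNA over control-siRNA, from edgeR, with 95% intervals (horizontal lines) and genes grouped by role. Filled red points are the 19 genes with an adjusted p under 0.05, all left of 0; the widest interval reaches 0.29 and the narrowest 0.095 to each side of the estimate.

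Of the 8 polymerase and primase genes, 3 fell (37.5%, beside 10.2% of all genes), and the median log2 fold change was -0.15. Both primase subunits were among them, as was POLE2, the second subunit of the leading-strand polymerase epsilon. PRIM2, the large primase subunit, was at 42.0, 42.9 and 40.9 CPM with control-siRNA and at 34.7, 35.4 and 33.9 CPM with TAZ-siRNA. The groups were well apart, and the mean was 82.7% of control-siRNA (log2 fold change -0.27, SE 0.052, edgeR adjusted p = 0.00476). POLE2 was at 33.5, 29.4 and 31.0 CPM against 25.7, 27.1 and 25.8 CPM. This amounted to 83.7% of control-siRNA (log2 fold change -0.26, SE 0.063, edgeR adjusted p = 0.016). PRIM1, the catalytic primase subunit, was at 86.7% (-0.21, adjusted p = 0.025). PRIM1 shares 4.20% of its exon bases with NACA on the same strand. NACA had a mean of 27601 counts (log2 fold change -0.16), beside 1664.5 counts for PRIM1. The part of NACA reads in the PRIM1 counts was not tested. Corrected for GC content and length, POLE2 (-0.16, adjusted p = 0.0908) and PRIM1 (-0.093, adjusted p = 0.315) no longer passed the test.

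The catalytic polymerase subunits POLA1, POLD1 and POLE were not called, nor were POLD3 and POLA2. POLD1 of the lagging-strand polymerase delta was at 89.3% and POLA1 of the polymerase that starts each fragment at 91.1% of control-siRNA, without overlap between the groups and with edgeR adjusted p of 0.0652 and 0.125. Both passed after correction for GC content and length, POLD1 at -0.22 (adjusted p = 0.00214) and POLA1 at -0.20 (adjusted p = 0.00757). POLE, POLD3 and POLA2 overlapped between the groups, at 98.1, 91.7 and 102% of control-siRNA.

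In the set of clamp, clamp loader, flap processing and single-strand binding genes, the median log2 fold change was -0.10. Of these 10 genes, 3 fell (30%, beside 10.2% of all genes). All 3 are small subunits of replication factor C, which places the sliding clamp on DNA. RFC3 was at 84.0, 83.0 and 83.7 CPM with control-siRNA and at 69.5, 70.0 and 63.9 CPM with TAZ-siRNA. The TAZ-siRNA libraries were all lower, at 81.1% of control-siRNA (log2 fold change -0.30, SE 0.051, edgeR adjusted p = 0.00245). RFC2 was at 90.2, 89.95 and 93.6 CPM against 75.6, 78.2 and 77.7 CPM, or 84.6% of control-siRNA (log2 fold change -0.24, SE 0.045, edgeR adjusted p = 0.0043). RFC5 was at 86.5% (-0.21, adjusted p = 0.026), and RFC4 at 91.7% without overlap but with an adjusted p of 0.153. On deposited FPKM with limma, RFC5 was at -0.13 and did not pass (adjusted p = 0.245).

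PCNA, the sliding clamp itself, had an estimate above 0. It was at 137, 133 and 133 CPM with control-siRNA and at 145, 147 and 141 CPM with TAZ-siRNA. All TAZ-siRNA libraries were above all control-siRNA libraries, with a mean of 107% of control-siRNA (log2 fold change 0.10, SE 0.044), which did not pass the test (edgeR adjusted p = 0.125). After correction for GC content and length the estimate was 0.22 and passed (adjusted p = 0.0168). PCNA over RFC3 was 3.44, 3.40 and 3.33 (TPM ratio, chosen after the values were seen) with control-siRNA and 4.38, 4.45 and 4.52 with TAZ-siRNA. The flap nuclease FEN1 was at 98.4% and the ligase LIG1 at 94.5% of control-siRNA, both with overlap. RPA1, RPA2 and RPA3, which coat single-stranded DNA, were at 95.5, 97.0 and 88.5%, each without overlap between the groups and none called (RPA3 had an edgeR adjusted p of 0.0593). RPA1 was called lower after correction for GC content and length (-0.14, adjusted p = 0.0125).

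**Figure D3:**
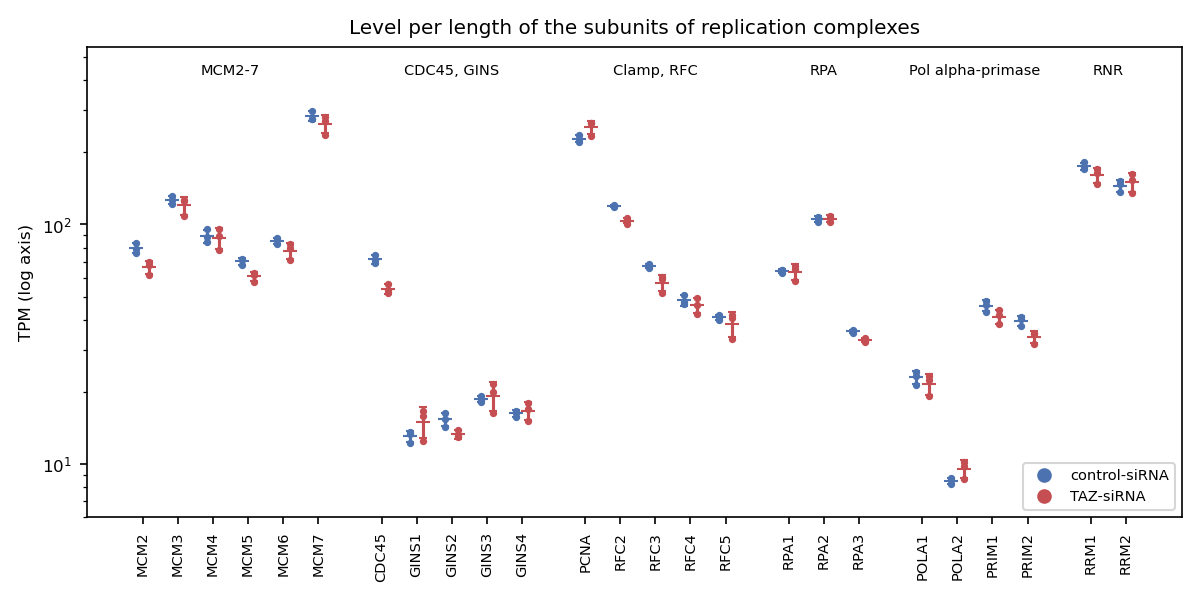
Level per length (TPM, log axis) of the subunits of 6 replication complexes in each library (points), with the mean (dash) and SD (error bar, n = 3), blue for control-siRNA and red for TAZ-siRNA. MCM7 is the highest of the MCM2-7 genes and MCM5 the lowest in both groups, and the step between groups is largest in CDC45.

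Nucleotide supply held 3 genes that fell among 4 (75%, beside 10.2% of all genes), with a median log2 fold change of -0.19. TYMS, which makes thymidylate, was at 132, 122 and 125 CPM with control-siRNA and at 109, 111 and 112 CPM with TAZ-siRNA. The groups did not overlap, at 87.7% of control-siRNA (log2 fold change -0.19, SE 0.047, edgeR adjusted p = 0.0172). TYMS shares 39.9% of its exon bases with ENOSF1 on the opposite strand, and it is not stated whether the counting used strand. The thymidine kinase gene TK1 was at 138, 142 and 155 CPM against 119, 123 and 128 CPM, or 85.0% (log2 fold change -0.23, SE 0.055, edgeR adjusted p = 0.0125).

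Of the subunits of ribonucleotide reductase, the enzyme that makes deoxynucleotides, 1 was called. RRM1, the large subunit, was at 87.8% of control-siRNA without overlap (-0.19, edgeR adjusted p = 0.0218). RRM2, the small subunit whose level follows S phase, was at 223, 218 and 209 CPM with control-siRNA and at 227, 217 and 205 CPM with TAZ-siRNA. These groups overlapped almost fully, at 99.8% of control-siRNA (log2 fold change -0.0023, 95% interval -0.12 to 0.12, edgeR adjusted p = 0.982). RRM2 over RRM1 was 0.832, 0.852 and 0.798 (TPM ratio, chosen after the values were seen) with control-siRNA and 0.959, 0.941 and 0.920 with TAZ-siRNA.

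Of the 9 G1/S regulators, only CDK2 fell at the threshold used, and the median log2 fold change was -0.014. That share of 11.1% was near the 10.2% of all genes tested that were called lower. Among genes expressed at or above the least abundant member, 13.7% were called lower. CDK2, the kinase of cyclins E and A, was at 100.4, 99.999 and 101 CPM with control-siRNA and at 84.6, 86.9 and 85.4 CPM with TAZ-siRNA. Both groups were tight and apart, at 85.2% of control-siRNA (log2 fold change -0.23, SE 0.043, edgeR adjusted p = 0.00425). Its phosphatase CDC25A was at 97.9% with overlap.

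None of the 3 cyclins was called. CCND1 (cyclin D1), which links growth signals to the retinoblastoma protein, was at 201, 198 and 189 CPM with control-siRNA and at 191, 211 and 158 CPM with TAZ-siRNA. The TAZ-siRNA libraries lay on both sides of the control-siRNA range, and the log2 fold change of -0.075 (95% interval -0.28 to 0.13, edgeR adjusted p = 0.598) was 0.035 without TAZ-siRNA replicate 3 and -0.15 after correction for GC content and length (adjusted p = 0.153). CCNE1 (cyclin E1) was at 8.56, 7.58 and 8.75 CPM against 7.27, 7.75 and 9.65 CPM, with a log2 fold change of -0.014 (95% interval -0.27 to 0.24). CCNE2 was at 96.7% of control-siRNA with overlap. CCNE2 shares 37.0% of its exon bases with INTS8 and CCND1 10.4% with LTO1, both on the opposite strand.

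None of the 4 E2F genes was called. E2F1, the activator of S-phase genes, was at 46.6, 45.0 and 44.1 CPM with control-siRNA and at 46.0, 47.2 and 42.3 CPM with TAZ-siRNA. The groups overlapped, with a log2 fold change of -0.0036 (95% interval -0.13 to 0.12, edgeR adjusted p = 0.973). E2F2, another activator, was at 7.30, 8.18 and 6.88 CPM against 9.66, 10.7 and 7.43 CPM. Replicates 1 and 2 of TAZ-siRNA were above all control-siRNA libraries and replicate 3 was within them. The estimate was 0.31 (95% interval 0.022 to 0.60, edgeR adjusted p = 0.114) and 0.45 without that library (adjusted p = 0.00285). E2F7 and E2F8, repressors that act later in S phase, were both at 106% of control-siRNA, E2F7 without overlap (edgeR adjusted p = 0.206) and E2F8 with it.

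**Figure D4:**
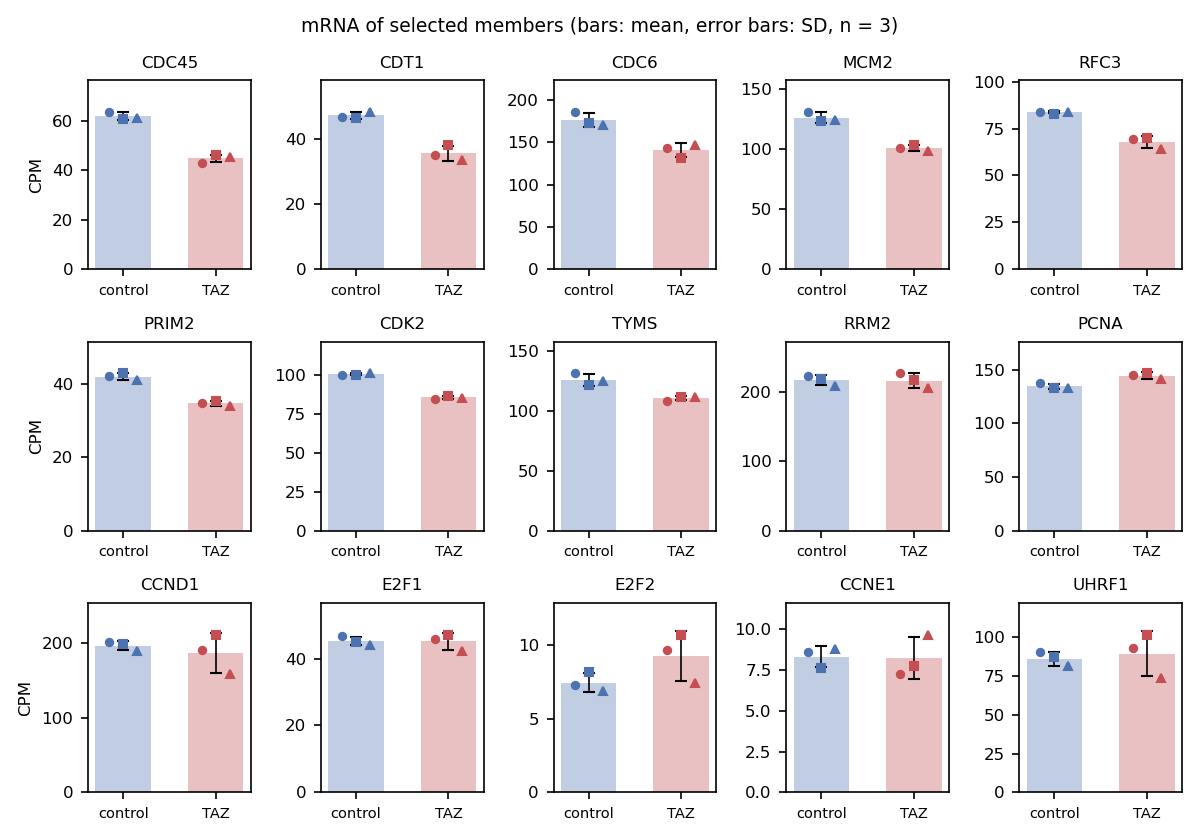
CPM of 15 of the 53 genes in each library (points; circle, square and triangle are replicates 1, 2 and 3), with the group mean (bar) and SD (error bar, n = 3), on axes that start at 0. The groups are apart in CDC45, CDT1, CDC6, MCM2, RFC3, PRIM2, CDK2 and TYMS, overlap in RRM2, CCND1, E2F1, E2F2, CCNE1 and UHRF1, and are apart in the other direction in PCNA.

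The last 4 genes act on chromatin at the fork or on protein turnover. CHAF1B, a subunit of the histone chaperone CAF-1, was at 29.3, 27.5 and 25.8 CPM with control-siRNA and at 24.7, 23.8 and 21.8 CPM with TAZ-siRNA. It fell to 85.0% of control-siRNA (log2 fold change -0.23, SE 0.070, edgeR adjusted p = 0.0369) and was called in 2 of the 6 fits without 1 library. CHAF1A, the large subunit of the same chaperone, was at 102% with overlap. UHRF1, which carries DNA methylation over to the new strand, was at 90.3, 87.0 and 81.3 CPM against 92.8, 102 and 73.7 CPM. The spread of the TAZ-siRNA libraries took in the control-siRNA range, and the estimate was 0.052 (95% interval -0.18 to 0.29). DTL, which targets CDT1 for destruction in S phase, had a log2 fold change of 0.0011 (95% interval -0.15 to 0.15).

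The same processes were followed in genes outside the 53. Of 40 further replication genes, 11 fell and 1 rose, with a median log2 fold change of -0.12. These were 27.5 and 2.5% of the list, beside 10.2% lower and 11.9% higher over all genes. CTPS1, which makes CTP, was at 47.5, 48.1 and 47.0 CPM against 36.9, 32.5 and 37.4 CPM (-0.42, edgeR adjusted p = 0.0014). POLD2, a subunit of polymerase delta, and UNG, which removes uracil from DNA, were at 82.4 and 85.1% of control-siRNA (adjusted p = 0.00351 and 0.00669). On deposited FPKM with limma, POLD2 was at -0.11 and did not pass (adjusted p = 0.453). ASF1B, a histone chaperone, was the gene that rose, to 122% (adjusted p = 0.00752).

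The retinoblastoma pathway moved in both directions. Of 26 genes, 23 were tested (CCND2, CDKN2A and CDKN2B had too few counts), and 7 fell and 6 rose, with a median of -0.053. These were 30.4 and 26.1% of those tested, beside 10.2% lower and 11.9% higher over all genes. CDK4 and CDK6, the kinases of D cyclins, fell to 82.2 and 79.5% of control-siRNA (edgeR adjusted p = 0.00458 and 0.00486), as did RB1 itself, RBL2, E2F5, CKS1B and MYC. CDKN2D, an inhibitor of these kinases, was at 15.4, 15.7 and 18.3 CPM with control-siRNA and at 24.5, 25.7 and 26.2 CPM with TAZ-siRNA, and it rose to 154% (log2 fold change 0.63, edgeR adjusted p = 0.000494). The inhibitor CDKN2C rose to 124% and E2F3, an activator, to 127% (adjusted p = 0.00363 and 0.00146). CCND3, E2F6 and SKP2 also rose.

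Of 49 mitosis genes, 14 fell and 1 rose (CDC25B, to 114%), with a median of -0.13. These were 28.6 and 2.04% of the list, beside 10.2% lower and 11.9% higher over all genes. CDC20, MAD2L1 and HMMR, which act in the spindle checkpoint and the spindle, were at 80.6, 78.1 and 77.6% of control-siRNA (edgeR adjusted p = 0.00141, 0.00143 and 0.00165). The proliferation marker MKI67 was at 280, 259 and 240 CPM with control-siRNA and at 274, 300 and 215 CPM with TAZ-siRNA, with overlapping groups; it was picked after its values were seen. The shares called and the medians of the 4 lists were not compared by a test.

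**Figure D5:**
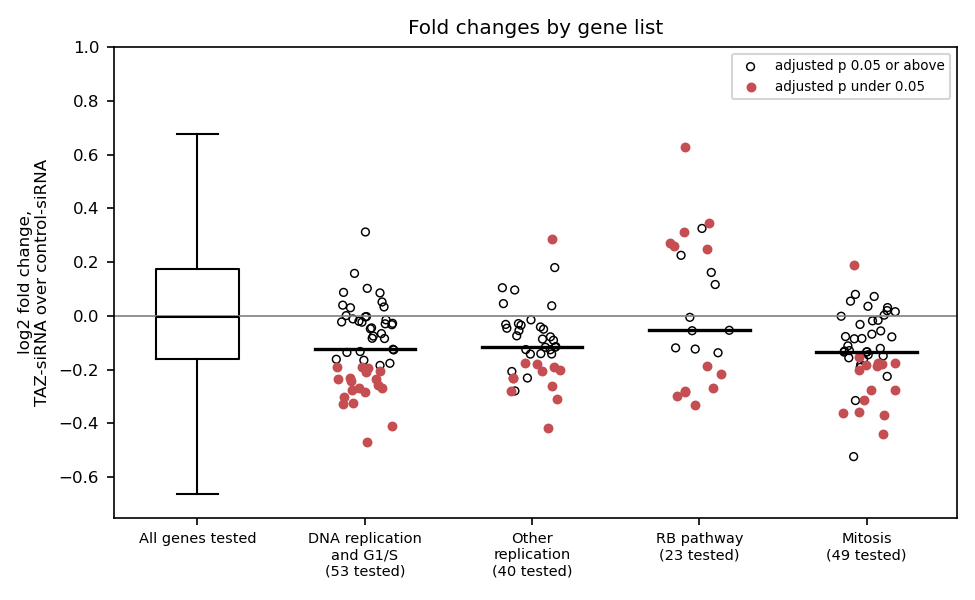
Log2 fold change of TAZ-siRNA over control-siRNA for all 16966 genes tested (box: quartiles and median, whiskers to 1.5 times the box) and for each tested gene of 4 lists (points, red where the edgeR adjusted p was under 0.05), with the list median as a bar. The medians lie at -0.12 for the DNA replication and G1/S genes, -0.12 for other replication genes, -0.053 for the retinoblastoma pathway and -0.13 for mitosis genes, beside -0.0054 for all genes.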

How the data were processed

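RNA was sequenced from 3 libraries per group of MDA-MB-231 cells. Per the methods of the study, TruSeq stranded mRNA libraries were mapped with HISAT2 and quantified with StringTie on GRCh38; the submitters' notes also list Bowtie 0.12.2 and mm8, with no role given. The deposited estimated counts, which the authors obtained from coverage, are whole numbers. The authors' FPKM and TPM values, as deposited, correct for length and depth. Whether the counting used strand is not stated in the sources used here. Every value column matched a sample.

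Counts of 16966 genes were tested in edgeR 4.0.16 (R 4.3.3) with TMM factors, filterByExpr at a minimum count of 10, the robust quasi-likelihood test and p-values adjusted by Benjamini-Hochberg across all of them. A gene was called at an adjusted p under 0.05. The biological coefficient of variation was 8.04%. The fit was tested on simulated data. Alternatives were DESeq2 1.42.0, other size factors and filters, a replicate block, a spline correction for GC content and length (available for 92.3% of genes and all members), limma 3.58.1 on log2 FPKM with a pseudocount of 1 or 0.1, a threshold of 0.01 and leaving out each library. An exact permutation test of 3 against 3 cannot go below 0.1 and was not used. Replicate numbers are those of the column names.

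Gene coordinates came from the deposited transcript table, exon overlaps from GENCODE release 44 and promoters from RefSeq. The members, the lists and the letters sought were chosen with earlier results of these data known. In each role the 2 members with the smallest p and the member with the largest fold change are given in every sample, as are 8 landmark genes. Of each other list the 3 genes with the smallest p are named. Among those, CTPS1 and CDKN2D are given in every sample. Further genes were named outside these rules, and MKI67 among them was picked after its values were seen. MCM5 and MKI67 are also given in every sample.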

Additional observations from a re-analysis of the deposited data

How the results depend on the processing

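The count of members called lower was 9 at an adjusted p under 0.01 and 11 to 20 when 1 library was left out, and it stayed between 13 and 26 in all other settings. The share of all genes called lower was 4.84 to 16.1% when 1 library was left out. The count called higher, 0 as reported, was 1 with the replicate block (E2F2, 0.31), 1 after correction for GC content and length (PCNA, 0.22), 1 with both together (PCNA, 0.21) and 0 to 5 when 1 library was left out. The count of other replication genes called, 12 as reported, was 19 with the block and the GC and length correction together, 6 at the threshold of 0.01 and 5 to 16 without 1 library. The retinoblastoma pathway count of 13 was 8 to 16 without 1 library. The mitosis count of 15 was 9 with limma on log2(FPKM + 1), 6 at 0.01 and 5 to 17 without 1 library. The median of the members ranged from -0.15 to -0.074 without 1 library, and it was -0.082 with limma on log2(FPKM + 1) and -0.14 after the GC and length correction. With limma on log2(FPKM + 1), CDC6, MCM6, GINS2, PRIM1, RFC5 and CHAF1B were not called. WWTR1 stayed lower throughout.

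Among the genes followed singly through all settings, the direction turned in 5, none of them called as reported. Turns of the other members were not listed. Over all 53 members, 36 estimates lay below 0 without TAZ-siRNA replicate 3, beside 43 as reported. UHRF1 was at -0.0098 after the GC and length correction, -0.015 with the block as well, and -0.046 to 0.18 without 1 library, called higher without TAZ-siRNA replicate 3 (adjusted p = 0.0196). CCNE1 was at 0.020 and 0.013 under the same corrections, 0.0056 and 0.0062 with limma at pseudocounts of 1 and 0.1, and -0.14 to 0.072 without 1 library. E2F1 was at 0.0038 with limma at both pseudocounts and -0.031 to 0.044 without 1 library, RRM2 at 0.0056 at both and -0.037 to 0.038, and CCND1 at -0.17 to 0.035 without 1 library. With the block and the GC and length correction together, CCND1 (-0.16, adjusted p = 0.0318) and POLE (-0.15, adjusted p = 0.0131) were called lower. The cause of these turns was not tested.

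Over all genes tested, the deviations of same-numbered libraries correlated little (-0.017, 0.0086 and 0.070). Not every library correlated best with its own number. These correlations weigh genes with few counts as much as others, so they cannot show that the numbers mark no pairing. No label says what a number marks, and the main fit did not use the numbers as a pairing. The replicate block moved the count of members called lower from 19 to 24, adding MCM3, MCM7, MCM10, POLD1 and RPA3. It moved the share of all genes called lower from 10.2 to 14.9% and the share called higher from 11.9 to 15.3%. With 3 libraries a group, the 95% intervals reached 0.095 to 0.29 (log2) to each side of the estimates. A member that was not called may still differ by its estimate and that much more. Of the 34 members not called, 26 had a 95% interval that included 0. The lowest count of a member in any library was 334, and the part of counting error in these intervals was not tested. The values are counts of mRNA, with no measure of cell cycle phase or of protein.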
